A study of Homo sapiens with 4 samples.

Results

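The poly(ADP-ribose) polymerase (PARP) system was followed on 4 human arrays through 10 named genes: PARP1, PARP2, PARP3, PARP4, PARP9, PARP10, PARP12, PARP14, ZC3HAV1, which is also called PARP13 or ZAP, and DTX3L, the partner of PARP9. They are 10 of 27193 gene names on the array. A probe was taken as a member when its spots were not controls and carried one of these names, which gave 14 probes, each kept apart. Control cells were MCF10A.B2, a human mammary epithelial line that expresses a form of Her2 that can be switched on by the crosslinker AP1510. The other group was MCF10A.B2 carrying a Tet inducible shRNA against PAK1, a serine-threonine kinase, and each group had 2 arrays. Both groups were grown with 5% horse serum, starved of serum for 3 h and given AP1510 for 15 min before total RNA was taken, so Her2 was switched on in the controls too. The methods set wild type cells of the line beside those with the shRNA, and the labels say only control. They do not say whether the inducer was given or whether the lines were clones, and a single shRNA against PAK1 is named. The labels do not state the origin of the replicates either, so the p-values measure only the spread between these samples, which may be technical.

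PARP enzymes move ADP-ribose from NAD onto proteins, and some onto nucleic acids. PARP1 and PARP2 are recruited to broken DNA, where they build chains of poly(ADP-ribose) that gather repair proteins, and they are the targets of the PARP inhibitors used in breast cancer. Most of the others add single ADP-ribose units or none, and several of them (PARP9, PARP10, PARP12, PARP14 and ZC3HAV1) are known as interferon-stimulated genes with roles in the response to viruses.

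Promoter sequences are shown first because they separate members that carry an interferon-stimulated response element from those that do not. They were taken from RefSeq (GRCh38.p14), where 8 of the 10 genes were matched by symbol. PARP4 and PARP10 were not matched. The element was searched as GAAANNGAA on both strands in a window of 250 bases before to 50 bases after each start, and 8.11% of the 35116 promoters in the table held it. Each line below runs 5′ to 3′ along the gene's own strand and ends at the last base before the start, except the PARP9 and DTX3L line, and capitals mark the element.
PARP14, chr3:122680739-122680838, plus strand: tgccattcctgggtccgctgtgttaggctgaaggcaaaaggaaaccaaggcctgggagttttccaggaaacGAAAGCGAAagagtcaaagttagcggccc
PARP12, chr7:140062952-140063051, minus strand: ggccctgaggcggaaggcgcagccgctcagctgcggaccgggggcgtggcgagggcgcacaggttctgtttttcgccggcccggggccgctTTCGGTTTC
PARP9 and DTX3L, chr3:122564301-122564349, plus strand: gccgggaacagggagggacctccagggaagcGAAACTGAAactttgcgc
ZC3HAV1, chr7:139109721-139109820, minus strand: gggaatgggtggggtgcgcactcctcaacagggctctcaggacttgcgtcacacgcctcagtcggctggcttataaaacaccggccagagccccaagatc
PARP1, chr1:226408094-226408193, minus strand: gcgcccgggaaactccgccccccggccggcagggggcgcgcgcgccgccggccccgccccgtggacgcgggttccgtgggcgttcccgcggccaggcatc

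PARP9 and DTX3L start head to head, with 37 bases between their starts, and the printed stretch holds those bases and the first 12 of DTX3L. A single match lies there, at positions -6 to 2 of DTX3L and -40 to -32 of PARP9, counting the first transcribed base as 0. The PARP14 match lies at positions -29 to -21 and the PARP12 match, which reads on the opposite strand, at -9 to -1. No match was found in the windows of PARP1, PARP2, PARP3 and ZC3HAV1, or at the other listed start of PARP9. A gamma activated site, searched as TTCNNNGAA, which reads the same on both strands, was held by 7.66% of the promoters. It was found at -40 to -32 in PARP14, without overlap with the other element, at -104 to -96 in ZC3HAV1 and at -154 to -146 in PARP2. A match is a match of letters and no measure of binding.

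PAK1 was lower in both samples of the shRNA group. The PAK1 probe (chr11:77034135-77034194, hg19, the build of all probe positions here) had normalized log2 intensities of 11.19 and 11.27 in control and 10.44 and 10.52 in PAK1 shRNA cells. The groups did not overlap, and the shRNA group stood at 59.5% of the control level (log2 fold change -0.75, standard error 0.08, adjusted p = 0.00013, limma). All p-values below were adjusted by the Benjamini-Hochberg method and come, unless stated, from the same fit over 27544 probes. An exact two-sided permutation test of 2 against 2 samples cannot give a p below 0.333 and was not used.

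Across all arrays, 78.9% to 83.2% of probes were well above background. The median raw intensity was 501 and 384 in control against 326 and 319 in PAK1 shRNA samples, so the groups differed before normalization, and the part of this in the results was not tested. Arrays of a group correlated at 0.998 over 27517 probes, and arrays of different groups at 0.932 to 0.942. All 8 markers of basal mammary epithelium were well above background on each array, with summed intensities of 410788 to 458956 in control and 400589 to 409960 in PAK1 shRNA cells. The luminal list was measured on all arrays for 6 of 7 genes (PGR on none) and its sum went from 160078 to 164891 in control to 208213 to 230257 in PAK1 shRNA cells. That sum rests mostly on KRT18, at a mean log2 intensity of 17.15 in control and 17.63 in PAK1 shRNA cells. The next brightest, KRT8, stood at 13.84 and 13.74. In this list KRT18 and FOXA1 were called higher, KRT19 and GATA3 lower, and KRT8 and ESR1 were not called. The fibroblast list had COL1A2 and COL3A1 above background on no array, and its sum was 4016 to 4759 against 7626 to 7878. The sum of 6 blood cell markers was 19174 to 20062 against 50749 to 56634, where CD14 and CD68 were higher and PTPRC, CD3E and HLA-DRA were not called. The part of these markers in the results was not tested, and in bulk RNA fewer cells of a type and less RNA per cell cannot be told apart.

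Most members were higher in PAK1 shRNA cells, and PARP1 and PARP2 were lower. All 14 probes passed the threshold, 11 higher and 3 lower, against 31.1% higher and 32.6% lower among all probes. The higher probes belonged to 8 genes, and the 3 lower probes to PARP1 and PARP2. Of the 14, 9 were at least 2-fold higher, against 8.67% of all probes, and 3 at least 2-fold lower, against 8.78%. At least 8-fold rises were seen for 5 member probes and for 1.00% of all probes. The groups did not overlap for any member probe, which was also so for 82.2% of all probes. The median log2 fold change was 2.43 over member probes and 0.01 over all probes. The study's heat map of these arrays shows PARP9, PARP10, PARP12 and PARP14 as a class of PARP family genes, so these counts are not independent evidence of a direction. All 14 probes were well above background on all 4 arrays and none was saturated.

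**Figure D1:**
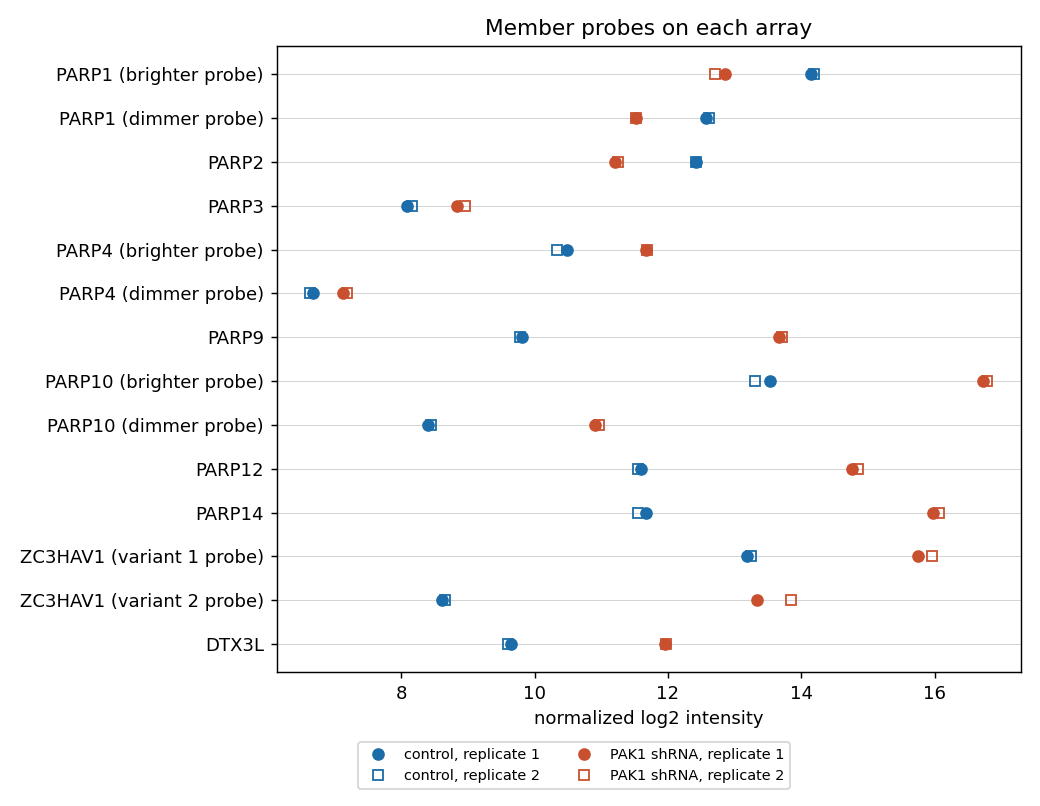
Normalized log2 intensity (x axis) of the 14 member probes (rows) on each of the 4 arrays, blue for control and red for PAK1 shRNA, with circles for replicate 1 and open squares for replicate 2. PARP1 and PARP2 lie to the left in PAK1 shRNA cells and the other 8 genes to the right, with no overlap of groups in any row; levels of different probes are not comparable.

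PARP1 and PARP2 were both lower in PAK1 shRNA cells, unlike PARP3, which also acts at DNA breaks. PARP1, which makes most of the poly(ADP-ribose) of a cell after damage, was read by 2 probes. The brighter one (chr1:226589945-226590004) gave 14.14 and 14.19 in control and 12.86 and 12.71 in PAK1 shRNA cells. Both shRNA samples were below both controls, at 38.5% of the control level (log2 fold change -1.38, standard error 0.08, adjusted p = 1.1e-05 from limma). The dimmer probe (chr1:226549161-226549220) gave 12.56 and 12.62 against 11.52 and 11.52. It fell too, to 47.5% of control (log2 fold change -1.07, standard error 0.07, adjusted p = 1.9e-05).

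PARP2, the closest relative of PARP1 with an overlapping part in break repair, had 12.41 and 12.43 in control and 11.21 and 11.25 in PAK1 shRNA cells (chr14:20825902-20825961). The samples of each group lay close together and the groups were apart. PARP2 stood at 43.9% of control (log2 fold change -1.19, standard error 0.07, adjusted p = 1.2e-05). The 95% interval of PARP2, -1.36 to -1.02, overlapped those of both PARP1 probes, -1.58 to -1.18 and -1.25 to -0.90. Of the nearest measured genes, TEP1 and RPPH1 beside PARP2 rose by 2.70 and 0.49 on the log2 scale, LIN9 beside PARP1 fell by 2.48 and C1orf95 on its other side rose by 0.24.

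PARP3 and PARP4 rose, with 95% intervals below those of the interferon-linked members. PARP3, which acts at double-strand breaks, gave 8.08 and 8.17 in control and 8.84 and 8.96 in PAK1 shRNA cells (chr3:51979914-51980199). Both shRNA samples were the higher ones, by 1.71-fold (log2 fold change 0.78, standard error 0.08, adjusted p = 0.00016). It was 0.51 when the background model was fitted on all spots. Of the genes beside PARP3, RRP9 fell by 0.32 on the log2 scale and GPR62 rose by 0.26. PARP4, the PARP of the vault particle, had a brighter probe (chr13:25044053-25044112) with 10.49 and 10.34 in control and 11.67 and 11.69 in PAK1 shRNA cells. This was a 2.40-fold rise with no overlap (log2 fold change 1.26, standard error 0.08, adjusted p = 1.6e-05). The dimmer PARP4 probe (chr13:24995163-24995222) gave 6.68 and 6.64 against 7.13 and 7.18, a log2 fold change of 0.50 (standard error 0.07, adjusted p = 0.00087). That probe was dim, with raw intensities of 81.7 to 119, and its log2 fold change was 1.27 with the scanner's processed signal and 0.26 with the model fitted on all spots. Beside PARP4, SPATA13 fell by 0.73 on the log2 scale and ATP12A changed by 0.62 and was not called.

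PARP9, DTX3L and PARP14 lie close together on chromosome 3, and all were higher. PARP9 carries macrodomains that bind ADP-ribose and works with DTX3L, a ubiquitin ligase. The PARP9 probe (chr3:122247297-122247356) gave 9.81 and 9.78 in control and 13.67 and 13.71 in PAK1 shRNA cells. The samples of each group were nearly equal and the groups far apart, a 14.9-fold rise (log2 fold change 3.90, standard error 0.07, adjusted p = 1.4e-07). DTX3L (chr3:122293039-122293098) gave 9.64 and 9.60 against 11.96 and 11.97. It rose 5.08-fold (log2 fold change 2.35, standard error 0.07, adjusted p = 7.0e-07), and its 95% interval of 2.17 to 2.52 lay below that of PARP9, 3.72 to 4.07. Both start at the stretch printed above with the shared response element. The difference between the genes was not itself tested.

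PARP14, a large mono-ADP-ribosyltransferase with macrodomains that is known as a cofactor of STAT6, gave 11.67 and 11.56 in control and 15.97 and 16.07 in PAK1 shRNA cells (chr3:122437444-122437503). Both shRNA samples stood far above both controls. PARP14 rose 21.2-fold (log2 fold change 4.41, standard error 0.08, adjusted p = 1.4e-07). By probe position PARP9 and DTX3L are 45.7 kb apart and DTX3L and PARP14 144 kb. Outside this block, KPNA1 on the PARP9 side rose by 0.77 and HSPBAP1 on the PARP14 side by -0.07 (adjusted p = 0.53 from limma). PARP15, a family gene whose probe lies between those of DTX3L and PARP14, was well above background on no array and was not tested.

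PARP10 and PARP12, both mono-ADP-ribosyltransferases, were higher. The brighter PARP10 probe gave 13.53 and 13.31 in control and 16.72 and 16.78 in PAK1 shRNA cells. That was a 10.1-fold rise without overlap (log2 fold change 3.33, standard error 0.09, adjusted p = 5.0e-07). The dimmer PARP10 probe gave 8.40 and 8.44 against 10.90 and 10.97, a 5.71-fold rise (log2 fold change 2.51, standard error 0.07, adjusted p = 6.1e-07). PARP12, which has zinc fingers of the kind found in ZC3HAV1, was printed as 10 spots per array (chr7:139723946-139724005).

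The mean over PARP12 spots was 11.59 and 11.55 in control and 14.77 and 14.85 in PAK1 shRNA cells. Single spots ran from 11.20 to 11.79 on the control arrays and from 14.46 to 15.05 on the PAK1 shRNA arrays, so no spot of one group reached the other. One spot on the first control array was marked as an outlier and left out. PARP12 rose 9.46-fold (log2 fold change 3.24, standard error 0.08, adjusted p = 2.5e-07). Its 95% interval, 3.06 to 3.42, overlapped that of the brighter PARP10 probe, 3.11 to 3.55. Of the nearest measured genes, GRINA beside PARP10 and JHDM1D beside PARP12 each rose by 1.01, while PLEC and TBXAS1 on their other sides changed by 0.09 and -0.08 and were not called.

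ZC3HAV1 had the largest rise of any member probe. Its product binds CpG-rich viral RNA and brings decay factors to it. The array held a probe for transcript variant 1, which encodes the long form with a PARP-like domain, and one for transcript variant 2, which encodes the short form without it. The variant 1 probe (chr7:138728351-138728410) gave 13.18 and 13.25 in control and 15.74 and 15.97 in PAK1 shRNA cells, a 6.23-fold rise (log2 fold change 2.64, standard error 0.10, adjusted p = 1.2e-06). The variant 2 probe (chr7:138745443-138745502) gave 8.61 and 8.65 against 13.34 and 13.84. This was a 31.1-fold rise (log2 fold change 4.96, standard error 0.15, adjusted p = 7.0e-07), and its shRNA samples had the widest spread of any member, with an SD of 0.36. The variant 2 interval, 4.59 to 5.33, and that of PARP14, 4.21 to 4.60, just met. The neighbouring gene ZC3HAV1L changed by 0.07 (adjusted p = 0.54), and TTC26 on the other side fell by 0.37 on the log2 scale.

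**Figure D2:**
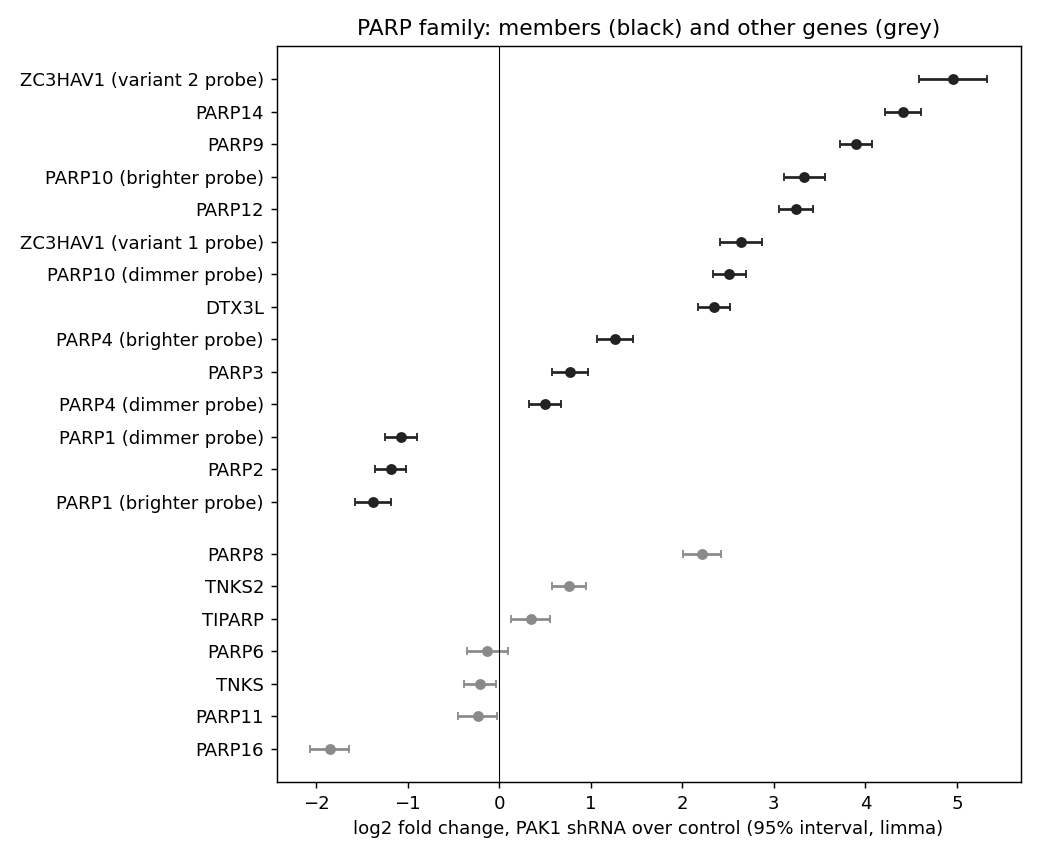
Log2 fold change of PAK1 shRNA over control (x axis) with its 95% interval from limma, for the 14 member probes in black and the brightest probe of 7 other PARP family genes in grey. Members run from -1.38 for the brighter PARP1 probe to 4.96 for the ZC3HAV1 variant 2 probe, and the grey genes from -1.85 for PARP16 to 2.21 for PARP8.

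Probes of the same gene moved the same way but by different amounts. Between probes of a gene the difference in log2 fold change was fitted with limma over the 4510 genes with at least 2 probes, of which 44.1% passed the threshold. For ZC3HAV1 the variant 1 probe changed by 2.32 less than the variant 2 probe (difference -2.32, standard error 0.11, adjusted p = 0.00011). The brighter probe rose more for PARP10, by 0.82 (standard error 0.11, adjusted p = 0.0024), and for PARP4, by 0.76 (standard error 0.08, adjusted p = 0.0010). The size of the PARP4 difference depended on the processing. With the scanner's processed signal the brighter and dimmer PARP4 probes rose by 1.34 and 1.27 on the log2 scale, nearly alike. With the background model fitted on all spots they rose by 1.13 and 0.26. For PARP1 the brighter probe fell further, with a difference of -0.31 (standard error 0.08, adjusted p = 0.030). The probes lie 7.73 kb apart in PARP10, 17.1 kb in ZC3HAV1, 40.8 kb in PARP1 and 48.9 kb in PARP4. A difference between probes can come from transcripts, from the probes' own response or from the processing of dim probes. These cannot be told apart on these arrays.

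**Figure D3:**
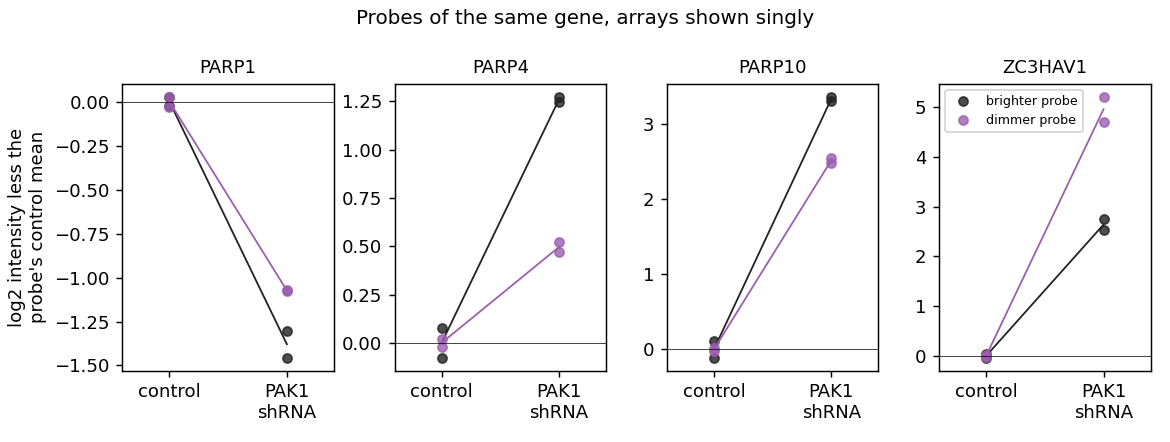
Log2 intensity less the probe's own control mean (y axis, a scale of its own for each gene) on each array for the genes with 2 probes, black for the brighter and purple for the dimmer probe, with lines between group means. The lines part most for ZC3HAV1, where the dimmer, variant 2 probe rose by 4.96 and the brighter by 2.64.

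The rest of the PARP family changed in both directions. Of 8 other genes, 7 were tested by their brightest probe, and 3 were higher, 2 lower and 2 not called, where among all genes 31.7% were higher and 32.3% lower. Their median log2 fold change was -0.13, against 2.49 over the members taken the same way and 0.02 over all genes. PARP8, a mono-ADP-ribosyltransferase, rose most, from 9.67 and 9.68 to 11.80 and 11.97 (log2 fold change 2.21, standard error 0.09, adjusted p = 1.7e-06). TNKS2, a tankyrase that makes poly(ADP-ribose), rose by 0.76 (adjusted p = 0.00013), with 9.51 and 9.61 against 10.30 and 10.35.

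PARP16, an enzyme of the endoplasmic reticulum membrane, fell by 1.85 on the log2 scale (standard error 0.09, adjusted p = 4.0e-06), from 9.76 ± 0.05 to 7.91 ± 0.13 (SD, n = 2). Changes of the other 4 were small. TIPARP, a target of the aryl hydrocarbon receptor, was called at 0.34 (adjusted p = 0.013), but not without the first control array (0.25) or the second PAK1 shRNA array (0.32), and its other probe changed by -0.05 (adjusted p = 0.58). TNKS was called at -0.21 (adjusted p = 0.042) and lost the call when any 1 array was left out, at values of -0.25 to -0.18. PARP6 changed by -0.13 (adjusted p = 0.26). PARP11 changed by -0.23 (adjusted p = 0.056), while its other probe fell by 0.60 (adjusted p = 0.0012).

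The listed partners of PARP1 and PARP2 in break repair were mostly lower. Of 16 genes tested of 17, 12 were lower, 2 higher and 2 not called, against 31.7% higher and 32.3% lower among all genes. Their median log2 fold change was -0.94. FEN1, the flap endonuclease, changed by -2.43, TIMELESS, a replication fork protein that binds PARP1, by -2.32, and LIG1, the replicative DNA ligase, by -2.30. APTX, which removes failed ligation products, rose by 0.34, a call that was lost without the first PAK1 shRNA array (0.29). Of its 3 probes 1 was called higher, and APTX was not called by their mean, at 0.18 (adjusted p = 0.067 from limma). FEN1, LIG1, PCNA and TIMELESS are also genes of DNA replication. The count and median also hold PRKDC, XRCC5 and XRCC6, genes of double-strand break end joining, which changed by -1.04, -0.74 and -1.19. XRCC1, the scaffold recruited by poly(ADP-ribose), changed by 0.06 and was not called.

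Genes that remove ADP-ribose and genes that supply NAD, the substrate of the PARPs that transfer ADP-ribose, were read in the same way. Of 9 removal genes tested, 2 were higher, 4 lower and 3 not called, shares near the 31.7% and 32.3% of all genes, with a median of 0.01. ADPRHL2, a hydrolase that acts on serine, rose by 1.62 and PARG, which degrades the chains, by 0.40. PARG was not called by the mean over its 2 probes, at 0.10 (adjusted p = 0.25). MACROD1 changed by -1.94, ENPP1 by -1.31 and OARD1 (C6orf130 on the array) by -0.79. All 8 NAD genes were tested, with 5 higher, 1 lower and 2 not called, beside the same shares of all genes, and a median of 0.67.

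NAMPT, the rate-limiting enzyme of NAD salvage, rose by 2.55 on the log2 scale, from 12.15 and 12.05 in control to 14.61 and 14.69 in PAK1 shRNA cells. NMRK1 (C9orf95 on the array) rose by 1.78 and NMNAT2 by 1.39, both enzymes of NAD synthesis. NAPRT (NAPRT1 on the array) changed by -0.34, and this call was lost without the second control array (-0.25) or the second PAK1 shRNA array (-0.31).

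Most signalling genes around PARP9 and DTX3L were higher too. Of 11 genes for interferon receptors, their kinases and factors, 8 were higher, 1 lower and 2 not called, against 31.7% higher and 32.3% lower among all genes. Their median was 0.82. IRF7 rose by 6.43, from 11.34 and 11.10 in control to 17.57 and 17.74 in PAK1 shRNA cells. STAT2, a subunit of the factor that binds the response element, rose by 3.72, from 14.25 and 14.08 to 17.87 and 17.89. The receptor chain IFNAR1 was the one that fell, by 0.57 on the log2 scale.

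Cofactors of ZC3HAV1 and RNA decay genes changed in both directions. Of 11 genes, 6 were higher, 4 lower and 1 not called, against 31.7% higher and 32.3% lower among all genes. Their median was 0.47. DDX58, the RNA sensor RIG-I, rose by 5.37, the exonuclease XRN1 by 2.16 and TRIM25, a ubiquitin ligase that ZC3HAV1 needs, by 2.13. The exosome subunits EXOSC5 and EXOSC7 changed by -1.29 and -0.72, and the deadenylase PARN by -0.74.

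**Figure D4:**
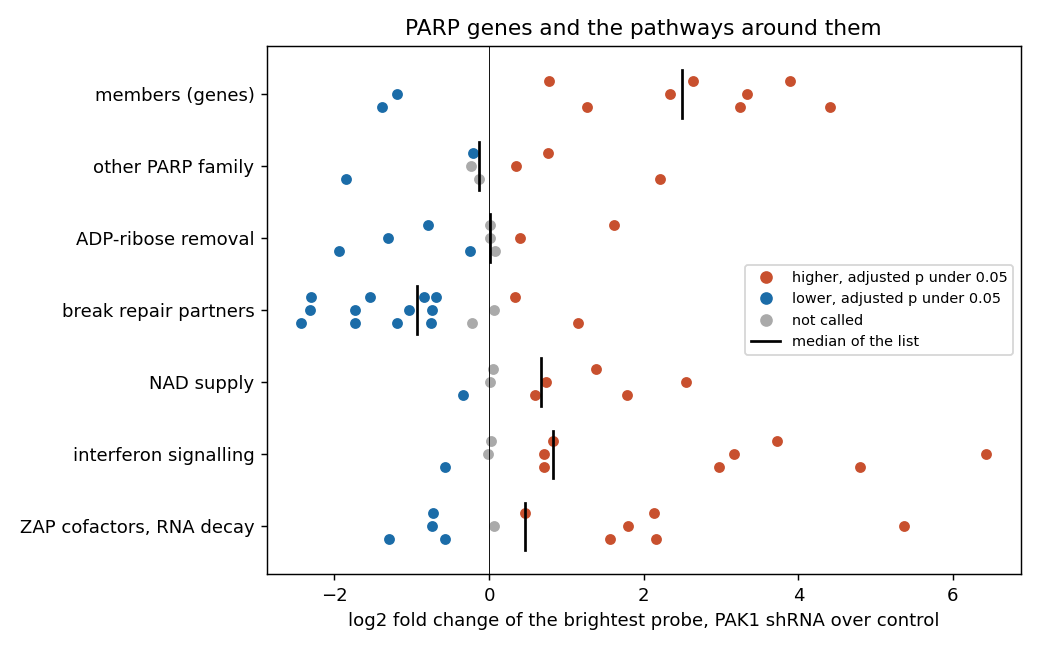
Log2 fold change of PAK1 shRNA over control (x axis) of the brightest probe of each gene tested, by list (rows), red for higher, blue for lower and grey for not called, with a black bar at the list median. Members have a median of 2.49 and break repair partners of -0.94.

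All genes tested by their brightest probe that had a promoter in the table were described without a test. The share that rose at least 8-fold was 5.47% of 1043 genes with the response element and 0.854% of 10427 without it. Called higher were 42.4% of those with it and 31.2% of those without it. For the gamma activated site, 2.09% of 1005 genes with it and 1.19% of 10465 without it rose at least 8-fold. Of the members with the response element, PARP9, PARP12 and PARP14 rose at least 8-fold and DTX3L 5.08-fold. ZC3HAV1 has no match to the response element in its window, and its variant 2 probe had the largest fold of the members.

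Genes outside the members whose array values lay closest, over 19510 genes and 4 arrays and after each probe's mean was taken off, were ARL14, LIPH and SERPINE2 for PARP9, at root mean square distances of 0.041 to 0.049 on the log2 scale. For PARP14 they were UBA7, FCRLA and VGF, at 0.024 to 0.052. For PARP1 they were OSGEPL1, STOX1 and ERI3, at 0.0098 to 0.011. Within a distance of 0.2 there were 53 genes for PARP9, 28 for PARP14 and 1248 for PARP1. Because arrays of a group were nearly equal, this distance rests mostly on the fold change. ARL14, LIPH and SERPINE2 changed by 3.96, 3.90 and 3.91, against 3.90 for PARP9. A shared cause was not tested.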

How the data were processed

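Total RNA of 2 control and 2 PAK1 shRNA samples was amplified, labelled with Cy3 and hybridized in 1 colour to Agilent whole genome arrays on 1 slide. The authors deposited the spot intensity as written by Agilent Feature Extraction (version 9.5 in the submitters' processing notes), not normalized between arrays, and also a table of log2 values, used here as an alternative. Arrays held 43118 spots that were not controls, for 34127 probes. Samples were grouped by their labels, which name the cell line, although the series text also mentions cells from tumors.

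Mean signal less local background was corrected with normexp (offset 50), as the methods name the method. The model was fitted without spots of flagged local background (522 to 651 per array). This was done because with all spots its mean on the control arrays moved from -9.19 and -12.1 to -666 and -740. These arrays held 8 and 18 spots of high background, and no fit left out those spots alone. Controls were dropped, arrays quantile normalized, outlier spots removed, and repeat spots of each probe averaged. A probe was tested if both arrays of either group measured it well above background. The test was limma 3.58.1 in R 4.3.3 per probe, adjusted by the Benjamini-Hochberg method, with calls at an adjusted p under 0.05. The number of arrays limits the precision. The fit was tested on simulated data.

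The members, gene lists and tests were chosen with earlier results of these data known. Named were PAK1, each member probe, the other PARP genes, the 3 largest rises and falls of each list among those called, 3 genes closest to PARP9, PARP14 and PARP1, and the members' neighbours. A few genes that this rule names are not reported here. PCNA, XRCC1, PRKDC, XRCC5 and XRCC6 were named after their values were seen. The difference between probes of a gene was fitted after the member probes were seen to differ. Genes carry the names of the array design, with list genes matched through older symbols in a RefSeq table of GRCh38.p14. Probe positions are those in the files (hg19). Exons and UTRs at these positions were not analysed here. The alternatives tried were the background fit and offset, the processed signal at its 75th percentile, normalization, filter, flags, test, probe rule, replicate block and each array left out.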

Additional observations from a re-analysis of the deposited data

How the results depend on the processing

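All 14 member probes and PAK1 kept their direction and stayed past the threshold in each of 16 alternatives, 224 values for the members, with adjusted p-values up to 0.033 in an unpaired t-test with Benjamini-Hochberg adjustment, which the study names for its statistics in general, while it names limma for the arrays. PAK1 ranged from -0.86 to -0.66. Over all probes, 8579 were called higher and 8992 lower. The unpaired t-test called 5469 higher and 6006 lower after adjustment (7331 and 7924 unadjusted), and a change of at least 2-fold left 2389 higher and 2418 lower. With each array left out, 7380 to 8044 were higher and 7782 to 8563 lower. Other PARP genes called lower numbered 2, and 1 with the processed signal, without the filter on dim probes and in the t-test (1 to 2 with an array left out), but 3 with cyclic loess and the mean over probes. Those called higher numbered 3, and 2 with median centring, the t-test and the mean over probes (2 to 3 with an array left out). Break repair partners called higher numbered 2, and 1 in the t-test and with the mean over probes (1 to 2 with an array left out). ADP-ribose removal genes called higher went from 2 to 1 with the mean over probes. NAD genes called lower went from 1 to 0 in the t-test (0 to 1 with an array left out). The causes were not tested. List medians ranged from -1.01 to -0.85 for break repair partners, -0.21 to -0.02 for other PARP genes, -0.04 to 0.09 for ADP-ribose removal, 0.57 to 0.73 for NAD supply, 0.74 to 1.03 for interferon signalling and 0.36 to 0.52 for RNA decay. Among the other named genes, 22 values lost the threshold, 5 (PARP11) gained it and none reversed. One of the values lost was EXOSC7 in the t-test (adjusted p = 0.069).

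No pairing by replicate number was seen: deviations of same-numbered arrays correlated at 0.0088 over 27517 probes. With so few arrays this cannot show whether the samples were paired. The replicate block called 8712 higher and 9080 lower. The median log2 fold change of all probes was 0.01, but 0.10 with the processed signal and 0.12 with median centring, to which changes there are relative. No fit with the slide as a block was run because all arrays shared 1 slide.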
